A study of Mus musculus with 12 samples.

Results

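Oxidative phosphorylation is carried out by 5 protein complexes of the inner mitochondrial membrane, and the transcripts of their subunits were followed in differentiating C2C12 cells. The members were taken by symbol: Ndufa, Ndufb, Ndufc, Ndufs and Ndufv genes (not the Ndufaf assembly factors), Uqcr genes, Cox4i, Cox5, Cox6, Cox7 and Cox8 genes, Atp5 genes, the 4 Sdh genes and the 13 protein-coding mitochondrial genes, without pseudogenes and with a mean of at least 1 CPM (depth-scaled counts, from edgeR) over all libraries. This gave 91 of the 55416 genes in the count table. Of these, 78 are nuclear-encoded, with 36 in complex I, 4 in complex II, 8 in complex III, 13 in complex IV (Ndufa4 counted there) and 17 in complex V. All 91 were among the 13250 genes that passed the filter on low counts.

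RNA had been sequenced from C2C12, an established line of mouse skeletal muscle myoblasts, in 4 groups of 3 biological replicates. Cells labelled Mapk14 knockout (KO) and wild-type (WT) cells were either moved to differentiation medium with 2% horse serum (DM) or left in growth medium with 10% fetal bovine serum (GM), in both cases for 5 days. The groups are given as KO DM, KO GM, WT DM and WT GM. The sources used here do not say how many knockout clones were used, and beyond the word biological nothing states that the replicates were cultured apart, so the p-values measure the spread between these libraries.

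Complex I (NADH dehydrogenase) and complex II (succinate dehydrogenase) pass electrons to ubiquinone, complex III (cytochrome bc1) passes them on to cytochrome c, and complex IV (cytochrome c oxidase) hands them to oxygen, while complex V (ATP synthase) uses the proton gradient to make ATP. Core membrane subunits of complexes I, III, IV and V are encoded by the mitochondrial genome and transcribed inside the organelle, whereas complex II is wholly nuclear-encoded. When serum is lowered, C2C12 myoblasts leave the cell cycle and fuse into myotubes, and differentiated muscle is known for a high oxidative capacity and for its own isoforms of some complex IV subunits.

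The libraries held 8821669 to 11536396 counts. The 13 mitochondrial genes took 2.74% to 3.82% of the counts of a library and the 78 nuclear genes 0.862% to 1.04%. The sum of the myoblast and myotube markers (Myod1, Myf5, Des, Myog, Acta1, Ckm and Mymk) was 2648 to 3053 CPM in KO DM, 283 to 518 CPM in KO GM, 5669 to 5764 CPM in WT DM and 1519 to 2104 CPM in WT GM, so the marker level differed with medium and with genotype label. In bulk samples, fewer cells of a type and less RNA per cell cannot be told apart, and the part of cell composition in the results was not tested. The 4 endothelial markers together reached at most 0.798 CPM. At 0 in every library were Ptprc and Adgre1 (leukocyte), Epcam (epithelial), Sox10 (glial), and Ucp1, Adipoq and Cidea (adipocyte). Other members of these lists were detected. The summed macrophage and leukocyte markers, with Cd68, Csf1r and Lyz2, ranged from 11.2 to 20.9 CPM over all libraries. The summed adipocyte markers, with Fabp4, ranged from 0.28 to 11.2 CPM. The summed epithelial markers, mostly Krt14, reached 13.4 to 14.4 CPM in KO DM, against 0.898 to 4.6 CPM over the other 9 libraries. The summed Schwann and neural markers, mostly Tubb3, reached 6.32 to 7.28 CPM in KO DM and 14.5 to 18.5 CPM in KO GM, against 45.1 to 54.6 CPM over the 6 WT libraries. Mapk14 itself was not lower in the KO-labelled libraries (log2 change 0.11 ± 0.08 SE in GM, adjusted p = 0.35; -0.03 ± 0.08 in DM, adjusted p = 0.822; edgeR), so the KO label was not borne out by the level of its transcript. A gene-level count does not show where the gene was altered. GM replicate 3 of either genotype label differed more from its group than the other GM replicates did from each other.

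The sequences below are shown because the largest change among the members lay in a muscle isoform whose reads had to be told from its ubiquitous paralog. Cox6a2 (ENSMUSG00000030785, chromosome 7) encodes the heart and skeletal muscle form of subunit VIa of complex IV, and Cox6a1 (ENSMUSG00000041697, chromosome 5) the ubiquitous form. The 72 bases aligned here are coding bases 175 to 246 of Cox6a2 and 220 to 291 of Cox6a1 in the GENCODE M21 transcripts (GRCm38), and the capitals mark the longest run of bases shared by the whole transcripts, 12 bases.
Cox6a2: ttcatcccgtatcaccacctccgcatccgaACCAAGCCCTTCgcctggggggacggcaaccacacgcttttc
Cox6a1: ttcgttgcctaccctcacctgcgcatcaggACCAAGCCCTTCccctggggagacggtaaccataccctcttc
Reads were paired-end per the labels, and no run longer than 12 bases was common to the 680-base and 571-base transcripts compared.

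The mitochondrial ATP synthase genes overlap. mt-Atp8 and mt-Atp6 lie on the same strand of the mitochondrial genome, are read from a common RNA, and share 43 bases at chrM:7927-7969 (GRCm38, plus strand), marked in capitals.
mt-Atp8 end: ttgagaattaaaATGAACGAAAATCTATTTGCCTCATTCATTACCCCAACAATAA
mt-Atp6 start: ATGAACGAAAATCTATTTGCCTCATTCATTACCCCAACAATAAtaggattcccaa
The shared stretch is 21.1% of the 204 bases of mt-Atp8 and 6.31% of the 681 bases of mt-Atp6, so how reads in it were assigned bears far more on mt-Atp8. No source used here gives the assignment rule.

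In the KO-labelled cells, DM raised 15 of the 78 nuclear subunits and lowered 1, against 20.8% of all 13250 genes called higher and 19.8% called lower (40.6% in all) (edgeR quasi-likelihood test, Benjamini-Hochberg adjusted p below 0.05). In WT cells DM raised 15 and lowered 0, against 18.4% and 14.8% of all genes (33.2% in all). The share of nuclear subunits called higher, 19.2% in both genotypes, was therefore close to that of all genes, while calls in the lower direction were 1.28% in KO and 0% in WT. The median log2 change of the 78 genes was 0.11 in KO and 0.10 in WT, beside 0 and -0.01 for all genes. The changes were small: without Cox6a2, the called ones lay between -0.21 and 0.45 in KO and between 0.19 and 0.46 in WT, and 76 of 77 subunits were within 0.5 of 0 in each. Where the groups of a gene are said not to overlap, such separation was common: of all genes tested, 25.6% were higher and 25.1% lower in all KO DM libraries than in all KO GM libraries, and 23.7% and 20.6% in WT. At an unadjusted p below 0.05, 22 nuclear subunits were higher and 2 lower in KO, and 21 higher and 7 lower in WT.

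The WT count depended on scaling and on single libraries. With total counts in place of TMM (trimmed mean of M-values) scaling, 8 nuclear subunits were higher and 7 lower in WT DM, and with upper-quartile factors 11 were higher and 3 lower. DESeq2 called 14 higher and 0 lower. Without WT DM replicate 1, WT DM replicate 2 or WT GM replicate 2 the higher count was 8, 8 and 5. The lower count was 5 without WT DM replicate 1, 3 without KO DM replicate 3, KO GM replicate 3 or WT GM replicate 2, 2 without KO GM replicate 1, and 1 if any of KO GM replicate 2, WT GM replicate 1 or WT GM replicate 3 was left out. In KO the higher count was 24 without both GM replicate 3 libraries and 10 to 22 with any 1 library left out. Of the 15 higher calls, 8 in KO and 4 in WT held under all 24 alternatives.

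**Figure D1:**
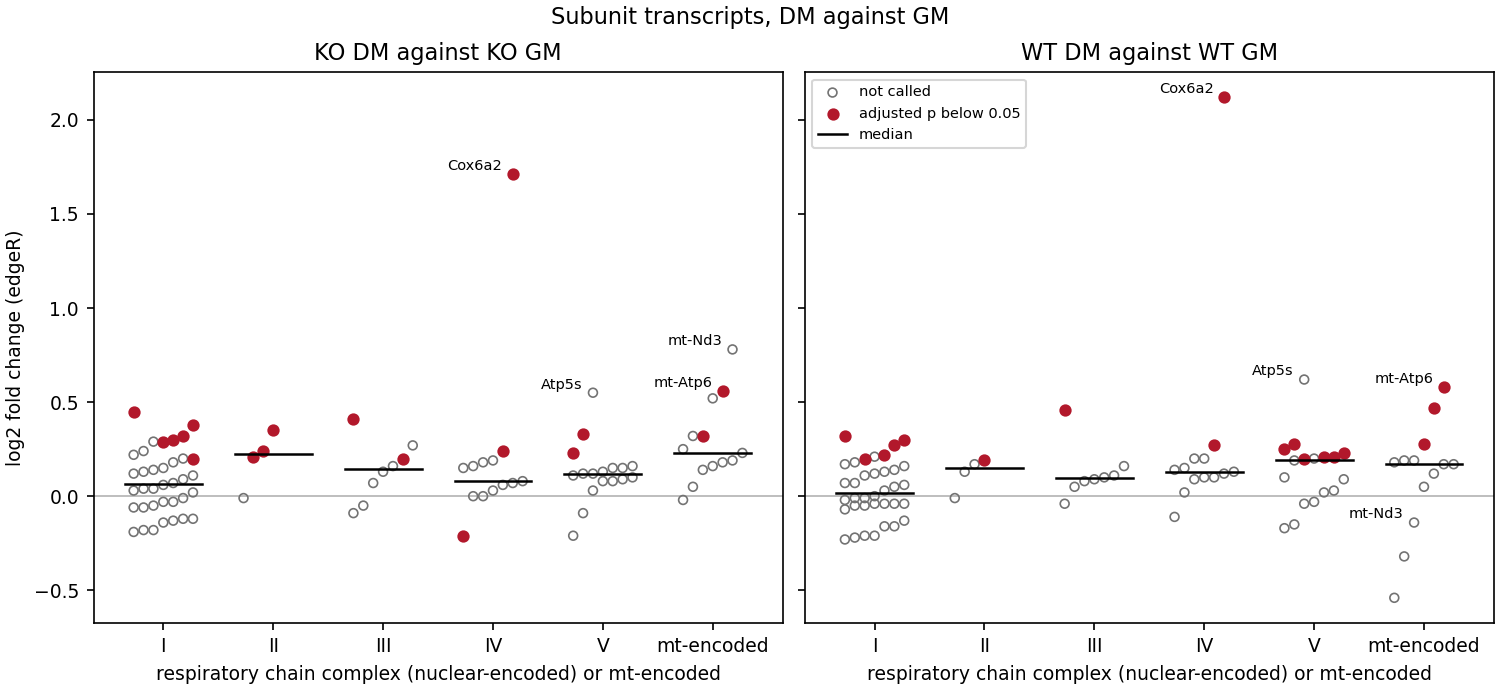
Log2 fold change (edgeR, y axis) of each subunit transcript in DM against GM, by complex (x axis), for KO-labelled cells (left) and WT cells (right). Filled points passed an adjusted p of 0.05, open points did not, and bars are medians. Cox6a2 stands at 1.71 and 2.12, while nearly all other subunits lie within 0.5 of 0.

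Cox6a2 had 4.76, 5.51 and 4.74 CPM in KO DM, against 1.4, 2.08 and 1.06 CPM in KO GM. In WT cells it had 17.5, 14.8 and 14 CPM in DM, against 4.11, 3.12 and 3.39 CPM in GM. All DM libraries were above all GM libraries of the same genotype label, and WT GM lay below KO DM. It rose 3.27-fold in KO (log2 change 1.71 ± 0.25 SE, adjusted p = 1.16e-05) and 4.34-fold in WT (2.12 ± 0.21, adjusted p = 5.09e-08). Cox6a2 was the only nuclear subunit called and changed at least 1.5-fold in either genotype, a size reached by 19.3% of all genes in KO and 16.0% in WT. The difference between the 2 responses was -0.41 ± 0.34 (interaction, adjusted p = 0.517).

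Its paralog Cox6a1 had 237, 217 and 216 CPM in KO DM, against 175, 190 and 203 CPM in KO GM, and the groups did not overlap. That rise was 1.18-fold (0.24 ± 0.08, adjusted p = 0.0277), and it was lost without KO DM replicate 1 (adjusted p = 0.0869), KO GM replicate 1 (0.121) or KO GM replicate 2 (0.0607). In WT cells the change of Cox6a1 was 0.02 ± 0.08 (adjusted p = 0.873), with 163 to 210 CPM in DM and 178 to 187 CPM in GM. The test of the difference between genotypes gave 0.22 ± 0.12 (adjusted p = 0.286).

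Complex IV has further muscle isoforms that stayed below the 1 CPM minimum and are no members. Cox8b, the muscle form of subunit VIII, had 0.811, 0.56 and 0.279 CPM in KO DM, against 0.107, 0 and 0.0887 CPM in KO GM. The rise in KO passed (adjusted p = 0.0101), was lost without KO GM replicate 2 (0.0545), and is given no fold because the KO GM libraries held 1, 0 and 1 counts. In WT it had 2.42, 2.76 and 2.69 CPM in DM, against 0.309, 0.537 and 0.898 CPM in GM, a rise of 2.15 ± 0.46 on the log2 scale (adjusted p = 0.000827). Cox7a1, the muscle form of subunit VIIa, averaged 0.327 ± 0.243 CPM in KO DM, 0.13 ± 0.0734 in KO GM, 1.13 ± 0.269 in WT DM and 0.103 ± 0.00385 in WT GM (SD, n = 3), and was too low to be tested. The ubiquitous forms Cox8a and Cox7a2 did not pass the test in either genotype: Cox8a changed by 0.15 ± 0.07 in KO and 0.14 ± 0.07 in WT (adjusted p = 0.113 and 0.144), and Cox7a2 by 0.03 ± 0.10 and 0.20 ± 0.10 (adjusted p = 0.865 and 0.115). The hypoxia-linked isoform Cox4i2 averaged 0.04 CPM and the testis isoform Cox6b2 0.104 CPM over all libraries.

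**Figure D2:**
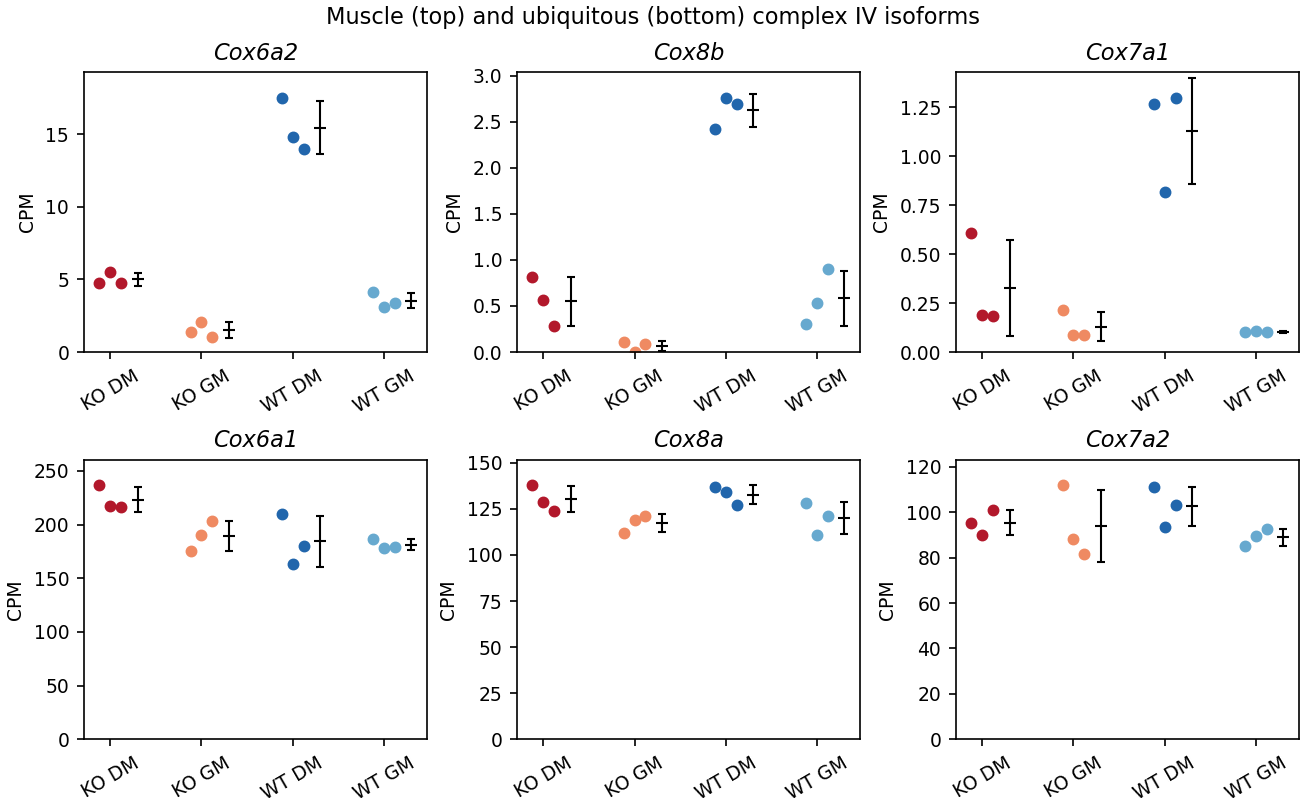
CPM (y axis, from 0) of complex IV isoforms in each library of the 4 groups (x axis), with the mean and SD of 3 libraries beside the points; muscle forms above, ubiquitous forms below. Cox6a2, Cox8b and Cox7a1 are highest in WT DM, with means of 15.4, 2.62 and 1.13 CPM.

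Outside those isoforms, complex IV moved little with the medium. Cox7a2l, which tethers complexes III and IV in supercomplexes, rose in WT (0.27 ± 0.08, adjusted p = 0.0122), a call lost without WT DM replicate 2 (0.0618) or WT GM replicate 2 (0.0719), and changed by 0.06 ± 0.08 in KO (adjusted p = 0.585). Cox5a, a subunit on the matrix side of the enzyme, was the only subunit that fell in DM: it had 92.9, 89.4 and 84.3 CPM in KO DM, against 107, 107 and 94.6 CPM in KO GM (-0.21 ± 0.08, adjusted p = 0.0418). The groups did not overlap, yet the call was lost in 15 of 24 alternatives, 9 of them with 1 library left out, and the adjusted p ran from 0.00947 to 0.167 over all of them. Cox4i1, the subunit of the same enzyme that binds ATP, had 206 to 223 CPM in KO DM and 198 to 239 CPM in KO GM and changed by 0.00 ± 0.09 (adjusted p = 0.997).

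The nuclear-encoded core subunits of complex I form the hydrophilic arm that oxidises NADH. Of these 7 subunits, 4 rose in KO (among them Ndufs3, Ndufs8 and Ndufv1) and 3 in WT (among them Ndufs1 and Ndufv1), with medians of 0.29 and 0.17. Of the 29 accessory subunits, 2 rose in each genotype (Ndufa13 and Ndufb11), with medians of 0.04 and -0.01. The shares called higher were 57.1% in KO and 42.9% in WT for the core, and 6.9% in each for the accessory subunits. Of all genes, 20.8% were called higher in KO and 18.4% in WT. The core is a group of only 7 genes, and its difference from the accessory subunits was not tested.

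Ndufv1, the flavoprotein that accepts electrons from NADH, rose in KO (141, 131 and 136 CPM in DM, against 103, 109 and 102 CPM in GM; 0.38 ± 0.08, adjusted p = 0.000291). In WT it had 119, 127 and 127 CPM in DM, against 117, 107 and 96.6 CPM in GM (0.22 ± 0.08, adjusted p = 0.0285). The WT call was lost in 9 of 24 alternatives, among them those without WT DM replicate 2 (0.11) or 3 (0.101), or WT GM replicate 2 (0.0872) or 3 (0.13). Ndufs1, the largest core subunit, rose in WT in all alternatives (155, 158 and 158 CPM in DM, against 108, 129 and 141 CPM in GM; 0.32 ± 0.08, adjusted p = 0.00319) and changed by 0.18 ± 0.08 in KO (adjusted p = 0.0741). Ndufa13, an accessory subunit also known as GRIM-19, had 54.2, 55.4 and 56.7 CPM in KO DM, against 38.5, 38.5 and 44.9 CPM in KO GM, the largest called rise among nuclear subunits in KO after Cox6a2 (0.45 ± 0.09, adjusted p = 0.000518). In WT its change was 0.30 ± 0.10 (adjusted p = 0.0179), lost without WT DM replicate 1 (0.158) or WT GM replicate 2 (0.0894).

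Ndufs3 and Ndufs8, also core subunits called in KO, changed by 0.20 ± 0.07 and 0.29 ± 0.09. The Ndufs3 call was lost without the filter on low counts and without KO DM replicate 1 or 3 or KO GM replicate 1 or 2 (adjusted p up to 0.133), and the Ndufs8 call without KO DM replicate 1 or KO GM replicate 1 (up to 0.0769). Ndufb11, a membrane-arm subunit encoded on the X chromosome, rose by 0.30 ± 0.07 in KO (adjusted p = 0.00245) and by 0.20 ± 0.08 in WT (adjusted p = 0.0471), the WT call being lost in 18 of 24 alternatives. Ndufb4 has a processed pseudogene, Ndufb4c, whose 390-base transcript is wholly identical to part of Ndufb4. The values of Ndufb4 (42 ± 3.55 CPM in KO DM, 35.6 ± 2.71 in KO GM, 46.1 ± 4.46 in WT DM and 39.7 ± 1.47 in WT GM, SD, n = 3) therefore depend on how shared reads were split.

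Of the 4 subunits of complex II, 3 were called higher in KO (75%), all but the iron-sulfur subunit, and 1 in WT (25%). Of all genes, 20.8% and 18.4% were called higher. Sdhc, a membrane anchor, had 127, 114 and 116 CPM in KO DM, against 95.8, 95.5 and 89 CPM in KO GM (0.35 ± 0.07, adjusted p = 0.000427). Sdha, the flavoprotein that oxidises succinate, had 245, 237 and 243 CPM in KO DM, against 205, 200 and 207 CPM in KO GM (0.24 ± 0.07, adjusted p = 0.00904). Both calls held in all alternatives, and in neither gene did the groups overlap. Sdhd, the other anchor, rose by 0.21 ± 0.07 (adjusted p = 0.0166), lost without KO DM replicate 3 (0.0738) or KO GM replicate 3 (0.0516). Sdhb, which carries the iron-sulfur clusters, changed by -0.01 ± 0.08 in KO and -0.01 ± 0.08 in WT (adjusted p = 0.929 and 0.921). In WT only Sdhc passed (0.19 ± 0.07, adjusted p = 0.0446), a call lost in 15 of 24 alternatives, and Sdha changed by 0.17 ± 0.07 (adjusted p = 0.0722).

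In complex III, Uqcrfs1, the Rieske iron-sulfur protein, had 101, 95.5 and 98.7 CPM in WT DM, against 69.7, 74.7 and 70 CPM in WT GM. The groups lay well apart and the rise, of 1.38-fold (0.46 ± 0.08, adjusted p = 0.000103), was the largest called one among nuclear subunits in WT after Cox6a2 and held in all alternatives. In KO it had 86.7, 81.4 and 75.2 CPM in DM, against 78.4, 67.6 and 65.9 CPM in GM, overlapping groups with a change of 0.20 ± 0.08 (adjusted p = 0.0499) that was lost in 12 of 24 alternatives. The difference between the responses was -0.26 ± 0.11 (interaction, adjusted p = 0.17). Uqcr10, a small subunit of the same complex, had its larger estimate in KO, with 51.6, 48 and 48.8 CPM in KO DM, against 36.8, 36.7 and 38 CPM in KO GM (0.41 ± 0.10, adjusted p = 0.00167), and 0.08 ± 0.10 in WT (adjusted p = 0.571). Its interaction was 0.33 ± 0.14 (adjusted p = 0.146).

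Of the 17 nuclear subunits of complex V, 2 rose in KO (11.8%) and 6 in WT (35.3%), against 20.8% and 18.4% of all genes, and none passed the interaction test. The rises in WT were Atp5b, the catalytic beta subunit, Atp5c1 and Atp5d of the central stalk, Atp5f1, Atp5h and Atp5o of the peripheral stalk, with log2 changes of 0.20 to 0.28. Atp5b had 1682, 1553 and 1569 CPM in WT DM, against 1447, 1357 and 1363 CPM in WT GM (0.21 ± 0.07, adjusted p = 0.0202), lost with total counts (0.0613) and without WT DM replicate 1 (0.118) or WT GM replicate 2 (0.0987). Atp5c1, the gamma subunit, had 229, 230 and 225 CPM in WT DM, against 181, 181 and 203 CPM in WT GM (0.28 ± 0.08, adjusted p = 0.00668), lost only if WT GM replicate 2 was left out (0.0503). Atp5d, the delta subunit, changed by 0.25 ± 0.07 (adjusted p = 0.0129), lost without WT DM replicate 2 (0.0528). In KO the rises were Atp5h (0.23 ± 0.08, adjusted p = 0.0176) and Atp5l (0.33 ± 0.10, adjusted p = 0.0109), a membrane subunit of the dimer interface, both lost without KO DM replicate 3 (0.0812 and 0.0718) or KO GM replicate 2 (0.0808 and 0.0675). In WT the Atp5h call was lost in 18 of 24 alternatives. Atp5a1, the alpha subunit, changed by 0.09 ± 0.06 in both genotypes (adjusted p = 0.28 and 0.319). The 3 genes for the same c subunit of the rotor, Atp5g1, Atp5g2 and Atp5g3, changed by -0.09, 0.15 and 0.12 in KO and by -0.17, 0.02 and 0.19 in WT, and none passed. Atpif1, the inhibitor of ATP synthase and no member by symbol, changed by 0.10 ± 0.09 and 0.04 ± 0.09 (adjusted p = 0.448 and 0.781). Atp5s was placed in complex V by its symbol alone, and a place in the enzyme was not checked. As the lowest member, at a mean of 3.19 CPM, it had the largest fitted change among nuclear members after Cox6a2 in both genotypes. Its changes were 0.55 ± 0.29 and 0.62 ± 0.31, and did not pass (adjusted p = 0.137 and 0.129).

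The calls in the 2 genotypes overlapped in 8 genes, 53.3% of either list of 15, among them Ndufa13, Ndufb11, Ndufv1, Sdhc, Uqcrfs1, Cox6a2 and Atp5h. The same overlap was not counted over all genes, so this share is not read as a trait of the subunits. These comparisons share no library, but both came from the same fit over all 12 libraries, with common scaling and dispersion. No nuclear or mitochondrial subunit passed the interaction test, which called 8.86% of all genes, 3.61% higher and 5.25% lower (at an unadjusted p below 0.05, 3 nuclear subunits had a positive and 1 a negative interaction, and 1 mitochondrial subunit a positive one). DESeq2 called 1 mitochondrial subunit and 0 nuclear subunits. The nearest were Ndufb7, an accessory subunit of complex I (0.37 ± 0.12, adjusted p = 0.0578), and mt-Atp8 (1.06 ± 0.35, adjusted p = 0.0591). Ndufb7 had 146, 133 and 126 CPM in KO DM, against 123, 118 and 123 CPM in KO GM, and 129, 108 and 105 CPM in WT DM, against 140, 120 and 136 CPM in WT GM. Its interaction passed in 11 of the alternatives, with adjusted p from 0.0148 to 0.133 over them, and that of mt-Atp8 in 9, from 0.00761 to 0.137. Leaving out KO DM replicate 3 gave 2 nuclear calls, and KO GM replicate 3, WT DM replicate 1, WT GM replicate 2 or WT GM replicate 3 gave 1. A mitochondrial call came without KO GM replicate 2, KO GM replicate 3, WT DM replicate 3 or WT GM replicate 3.

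Per length, the counts assigned to the mitochondrial genes spanned a wide range. Per kilobase of transcript and averaged over all libraries, mt-Co1 stood at 7443 CPM, mt-Co2 at 6266 and mt-Co3 at 4371, the 3 core subunits of complex IV. The complex I subunits mt-Nd1, mt-Nd4, mt-Nd2 and mt-Nd5 stood at 2825, 2292, 1487 and 1233 CPM per kilobase, mt-Cytb of complex III at 2552 and mt-Atp6 at 2159. mt-Nd6, the only member on the other (light) strand, stood at 507, and the short mt-Nd4l, mt-Nd3 and mt-Atp8 at 178, 72.1 and 29.9. Within the 4 groups, mt-Co1 ranged from 6194 to 8187 and mt-Co2 from 4615 to 7905 CPM per kilobase, so these neighbours overlapped, as did mt-Nd1 (2186 to 3366) and mt-Cytb (2184 to 2819). mt-Nd6 (391 to 663) lay apart from mt-Nd5 (997 to 1462) above it and from mt-Nd4l (76.1 to 246) below it. mt-Atp8 and mt-Atp6 come from a common RNA, yet their values, 29.9 and 2159, lay far apart. The values of the short genes are therefore counts assigned to each gene and are not read as RNA levels. They also depend on read pairs that reach past the ends of the genes. mt-Nd4l overlaps mt-Nd4 as well, by 7 bases on the same strand.

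DM raised 2 of the 13 mitochondrial genes in KO, mt-Nd6 and mt-Atp6, and 3 in WT, the same 2 and mt-Nd1, with 0 lower in either by edgeR or DESeq2 (at an unadjusted p below 0.05, 0 were lower in KO and 1 in WT). The shares called higher, 15.4% in KO and 23.1% in WT, were near the 20.8% and 18.4% of all genes. The medians of the 13 were 0.23 and 0.17. mt-Atp6, the proton channel subunit of ATP synthase, had 1619, 1551 and 2037 CPM in KO DM, against 1085, 1023 and 1417 CPM in KO GM (0.56 ± 0.16, adjusted p = 0.0157). In WT it had 1446, 2003 and 1886 CPM in DM, against 1100, 1203 and 1270 CPM in GM (0.58 ± 0.16, adjusted p = 0.0165). The groups did not overlap in either genotype. The KO call was lost without KO GM replicate 1 (0.0709) or 2 (0.0514), and the WT call without WT DM replicate 2 (0.058) or 3 (0.0609) or WT GM replicate 1 (0.0741) or 2 (0.054).

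mt-Nd6 had 286, 249 and 323 CPM in KO DM, against 231, 203 and 255 CPM in KO GM (0.32 ± 0.10, adjusted p = 0.0197), with overlapping groups. That call was lost without KO DM replicate 3 (0.121), KO GM replicate 1 (0.0563) or KO GM replicate 2 (0.104). In WT it had 311, 279 and 344 CPM in DM, against 203, 238 and 232 CPM in GM, with no overlap (0.47 ± 0.10, adjusted p = 0.00135), and the call held in all alternatives. The end of mt-Nd6 overlaps that of mt-Nd5 by 14 bases on the opposite strand. No source used here gives the strand setting of the counts, so it is not known whether reads from the 2 strands were told apart. mt-Nd5 changed by 0.18 ± 0.09 in KO and 0.17 ± 0.09 in WT (adjusted p = 0.141 and 0.178).

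mt-Nd1 had 3097, 3221 and 3163 CPM in WT DM, against 2336, 2613 and 2855 CPM in WT GM (0.28 ± 0.09, adjusted p = 0.0136), lost without WT DM replicate 2 (0.0585) or WT GM replicate 1 (0.109). In KO its change was 0.19 ± 0.09 (adjusted p = 0.0883). mt-Co1 changed by 0.16 ± 0.08 in KO and 0.19 ± 0.08 in WT (adjusted p = 0.107 and 0.06), mt-Co2 by 0.23 ± 0.22 and 0.12 ± 0.22, mt-Co3 by 0.32 ± 0.22 and 0.18 ± 0.22, and mt-Cytb by 0.14 ± 0.09 and 0.05 ± 0.09. mt-Nd2 and mt-Nd4 changed by 0.05 ± 0.09 and -0.02 ± 0.11 in KO and by 0.19 ± 0.09 and 0.17 ± 0.11 in WT. mt-Nd3 and mt-Nd4l had SEs of 0.47 to 0.72, with 9.19 to 39.6 CPM for mt-Nd3 within KO GM alone, and neither passed. The count of mitochondrial genes called higher was 0 in KO without KO GM replicate 2, 1 without KO DM replicate 3, and 4 without WT GM replicate 1 or WT GM replicate 3. In WT it was 1 if WT DM replicate 2 or WT GM replicate 1 was left out and 5 if WT GM replicate 3 was, and without both GM replicate 3 libraries it was 5 in each genotype.

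**Figure D3:**
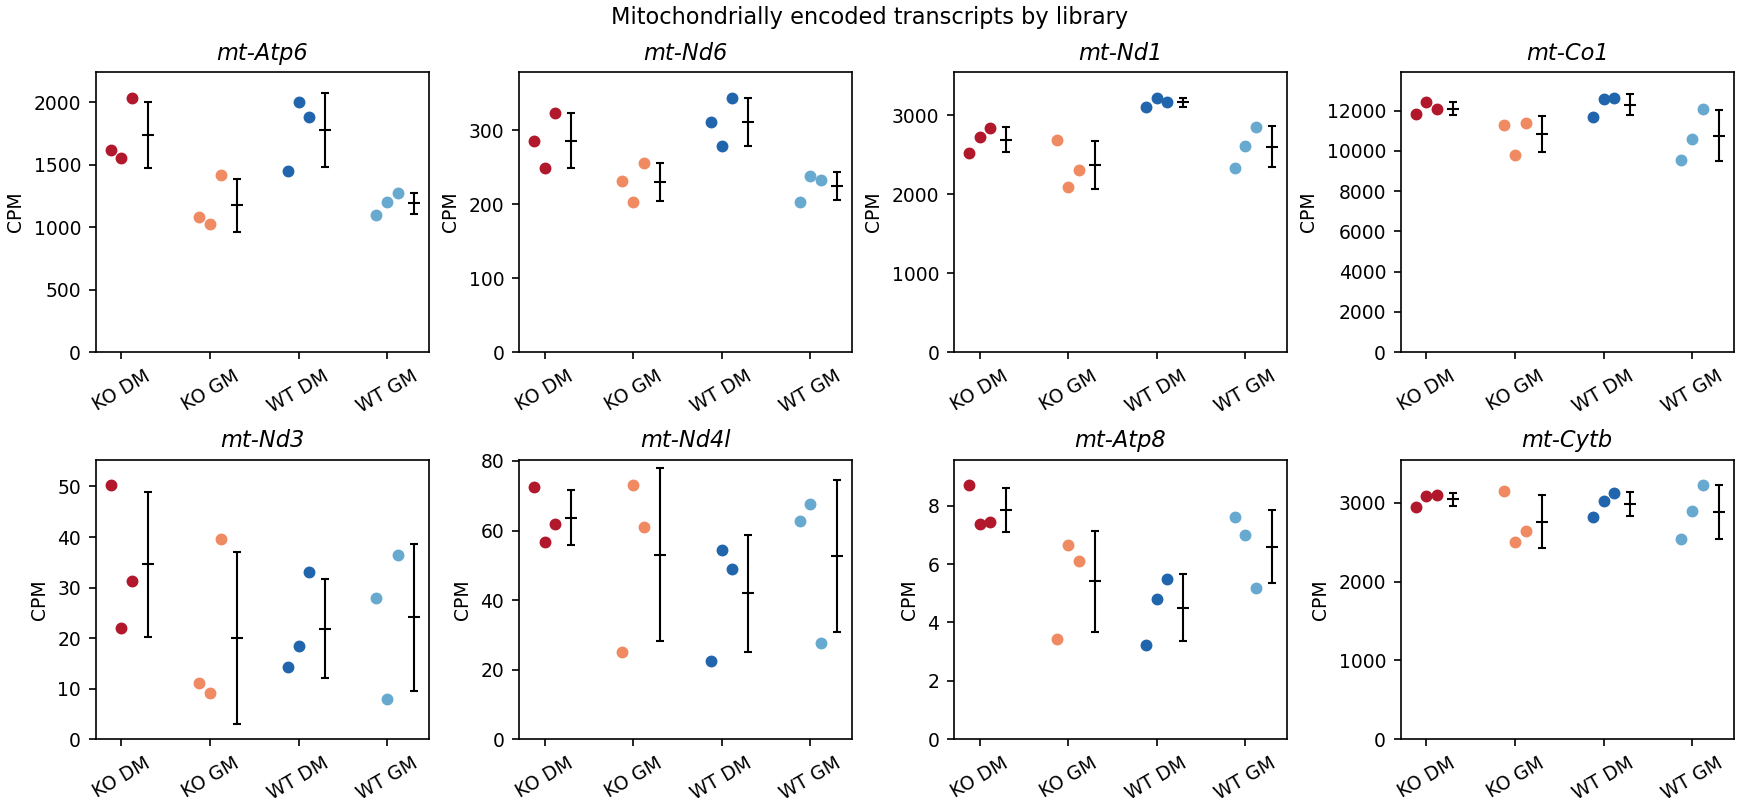
CPM (y axis, from 0) of 8 mitochondrially encoded transcripts in each library of the 4 groups (x axis), with the mean and SD of 3 libraries beside the points. In mt-Atp6 the DM libraries lie above the GM libraries of the same genotype label, while mt-Nd3 and mt-Nd4l spread widely within groups.

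Between genotype labels, few nuclear subunits were called in GM and more in DM. In GM, 0 of 78 were higher and 3 lower in KO, against 10.0% and 10.6% of all genes (20.7% in all; groups that did not overlap, 15.8% higher and 16.5% lower). In DM, 4 were higher and 14 lower in KO, against 13.6% and 17.4% of all genes (31.0% in all; groups that did not overlap, 21.3% higher and 26.2% lower), so the share called lower, 17.9%, was near that of all genes. Of the 78 nuclear subunits, groups did not overlap for 2 higher and 18 lower in KO in GM, and for 6 higher and 20 lower in DM. The log2 change was below 0 for 56 and above 0 for 22 in GM, and for 49 and 29 in DM. The medians were -0.07 in GM and -0.07 in DM, beside 0 and -0.02 for all genes. In GM, 1 nuclear subunit was higher and 11 lower at an unadjusted p below 0.05, and DESeq2 called 0 higher. The DM counts rested on single libraries: without KO DM replicate 2, KO DM replicate 3, WT DM replicate 1 or WT DM replicate 3 the lower count was 6, 8, 5 and 9, and without KO DM replicate 1, WT DM replicate 1, WT DM replicate 2 or WT DM replicate 3 the higher count was 0, 7, 0 and 1. In GM the lower count was 1 without WT GM replicate 1 and 5 without WT DM replicate 1, WT GM replicate 2 or WT GM replicate 3. Of the calls, 4 of the 14 lower ones in DM (Cox6a2, Uqcrc2, Ndufs4 and Atp5d), 0 of the 4 higher ones and 1 of the 3 in GM (Cox6a2) held in all alternatives.

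**Figure D4:**
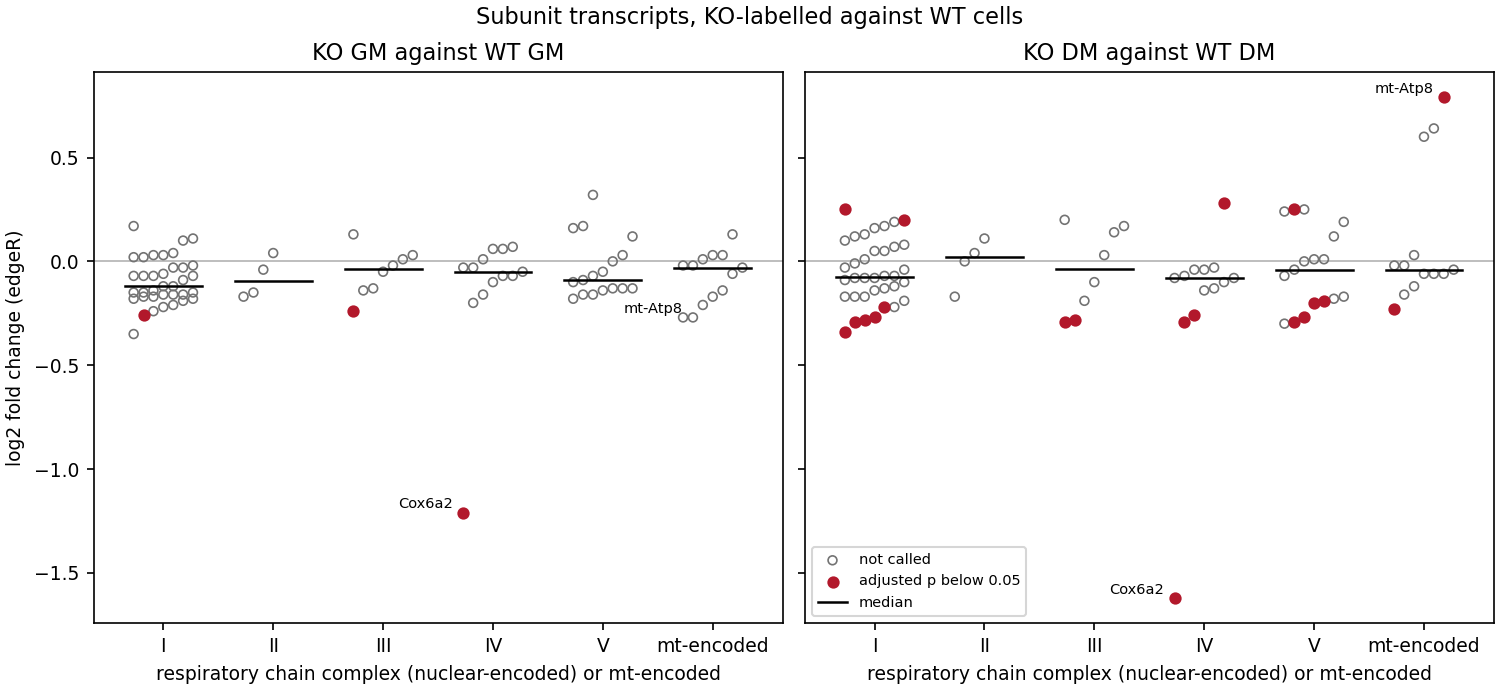
Log2 fold change (edgeR, y axis) of each subunit transcript in KO-labelled against WT cells, by complex (x axis), in GM (left) and DM (right). Filled points passed an adjusted p of 0.05, open points did not, and bars are medians. Cox6a2 stands at -1.21 and -1.62, and mt-Atp8 at 0.79 in DM.

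Cox6a2 was lower in KO in both media. From the library values given above, the KO DM libraries reached at most 5.51 CPM and the WT DM libraries at least 14, and the KO GM libraries reached at most 2.08 CPM and the WT GM libraries at least 3.12. It fell by 1.21 on the log2 scale in GM (SE 0.27, adjusted p = 0.00209) and by 1.62 in DM (SE 0.20, adjusted p = 1.36e-06), the only nuclear subunit called with a change of at least 1.5-fold, a size reached by 9.89% of all genes in GM and 13.9% in DM. Cox8b, outside the members, was lower in KO DM than in WT DM as well (-2.25 ± 0.46, adjusted p = 0.000592). It was also called lower in KO GM than in WT GM (adjusted p = 0.015), lost without KO GM replicate 2 (0.0727), WT GM replicate 3 (0.0721) or both GM replicate 3 libraries (0.0914). The summed myoblast and myotube markers, given above, were also lower in KO than in WT in both media. That sum pools markers of myoblasts and of myotubes, and the single markers are not reported here. The part of the markers in these differences was not tested. Cox6a1 was higher in KO DM than in WT DM, where it had 210, 163 and 180 CPM (0.28 ± 0.08, adjusted p = 0.0142), a call lost without KO DM replicate 1 (0.0558) or WT DM replicate 2 (0.102).

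In complex I, Ndufs4, a late-assembled accessory subunit of the NADH-oxidising arm, had 39.7, 38.3 and 39.7 CPM in KO DM, against 48.7, 52.3 and 48 CPM in WT DM (-0.34 ± 0.09, adjusted p = 0.00384). In complex III, Uqcrc2, a core protein, had 111, 109 and 103 CPM in KO DM, against 129, 136 and 129 CPM in WT DM (-0.29 ± 0.07, adjusted p = 0.00413). In complex V, Atp5d had 202, 179 and 170 CPM in KO DM, against 224, 227 and 224 CPM in WT DM (-0.29 ± 0.07, adjusted p = 0.00404). In none of the 3 did the groups overlap. Ndufb8, an accessory subunit of the membrane arm, was the only member besides Cox6a2 called in both media: it had 77, 75.3 and 75.5 CPM in KO GM, against 96.3, 91.7 and 84.8 CPM in WT GM (-0.26 ± 0.07, adjusted p = 0.0134), and 71.2, 70 and 68.8 CPM in KO DM, against 79.3, 78.1 and 86.8 CPM in WT DM (-0.22 ± 0.07, adjusted p = 0.0294). The GM call was lost without WT GM replicate 1 (0.0645), and the DM call in 10 of 24 alternatives, with adjusted p up to 0.204 without WT DM replicate 3.

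The other 9 nuclear subunits called lower in KO DM were Ndufab1, Ndufb9, Ndufv2, Uqcrfs1, Cox4i1, Cox7a2l, Atp5b, Atp5f1 and Atp5o, with log2 changes of -0.29 to -0.19. The other 3 called higher were Ndufb7 and Ndufb11 of complex I and Atp5g1 of the rotor, at 0.25, 0.20 and 0.25. Each of these 12 calls was lost in 2 or more of the 24 alternatives, Atp5b in 13. Uqcrh, the hinge protein of complex III, was called lower in KO GM (-0.24 ± 0.08, adjusted p = 0.0488) and lost in 16. Complex II had 0 calls in either medium, its 4 log2 changes lying between -0.17 and 0.11. Among mitochondrial genes 0 of 13 passed in GM, none of them at an unadjusted p below 0.05 either, and DESeq2 called 0 as well. In DM, mt-Nd1 was lower in KO (2516, 2721 and 2831 CPM, against 3097, 3221 and 3163 CPM in WT; -0.23 ± 0.09, adjusted p = 0.0411), a call lost in 14 of 24 alternatives. mt-Atp8, an accessory ATP synthase subunit, was higher in KO DM (8.71, 7.38 and 7.43 CPM, against 3.23, 4.8 and 5.49 CPM in WT DM; 0.79 ± 0.25, adjusted p = 0.0176), lost without KO DM replicate 1 (0.0607) or WT DM replicate 1 (0.0894). mt-Atp6, from the same RNA, changed by -0.04 ± 0.16 in that comparison (adjusted p = 0.892).

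Sequences upstream of the nuclear subunits are given here because subunit genes are known targets of the nuclear respiratory factors. Of the 78 nuclear members, 63 had an entry in the RefSeq promoter table (GRCm38.p6, 250 bases before to 50 after the start). The letters GCGCA and GCGC with any base between them (NRF1), CCGGAAG (ETS/GABP) and AAGATGG (YY1) were searched on both strands, and overlapping matches of different motifs each counted for their own motif. A gene with more than 1 window counted once, with a match in any of them. NRF1 letters were found for 17 genes (27.0%), against 11.6% of all genes tested with an entry and 5.19% of all genes in the table. ETS/GABP letters were found for 16 (25.4%), against 20.2% and 9.93%, and YY1 letters for 10 (15.9%), against 8.46% and 7.28%. At least 1 of the 3 was found for 37 genes (58.7%), against 34.8% of the genes tested. Of the 22 nuclear subunits called higher in DM in either genotype 17 had an entry, and 9 of these genes (52.9%) had a match, against 28 of 46 (60.9%) for the other subunits. The single motifs went different ways. NRF1 letters were found for 6 of the 17 (35.3%), against 11 of the 46 (23.9%). ETS/GABP letters were found for 6 (35.3%), against 10 (21.7%), and YY1 letters for 0, against 10 (21.7%). These differences were not tested. A match is a description of letters and not a binding site.

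The 250 bases before the start of Sdha and Cox6a1, both called higher in KO DM, are printed with matches in capitals. Ndufb4, not called in DM against GM in either genotype, also held 3 NRF1 matches and is not printed. The choice of these 2 genes therefore does not link matches to a rise in DM. Sdha (chr13:74350241-74350490, minus strand) holds 3 NRF1 matches beginning 98, 55 and 10 bases before the start. Cox6a1 (chr5:115348959-115349208, minus strand) holds 2 NRF1 matches at 162 and 117 bases and an ETS/GABP match at 16 bases, read on the opposite strand.
Sdha: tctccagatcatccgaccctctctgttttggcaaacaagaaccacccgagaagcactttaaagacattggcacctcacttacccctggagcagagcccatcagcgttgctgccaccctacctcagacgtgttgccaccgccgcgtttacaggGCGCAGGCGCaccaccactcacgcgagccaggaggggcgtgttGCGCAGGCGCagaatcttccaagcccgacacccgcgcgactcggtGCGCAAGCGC
Cox6a1: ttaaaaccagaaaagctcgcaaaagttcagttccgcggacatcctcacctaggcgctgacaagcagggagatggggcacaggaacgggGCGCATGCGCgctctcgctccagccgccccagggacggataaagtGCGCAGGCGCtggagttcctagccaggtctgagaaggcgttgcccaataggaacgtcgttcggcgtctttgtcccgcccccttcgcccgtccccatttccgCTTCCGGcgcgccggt

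The genes that build, express and feed the complexes were described from lists chosen with earlier results of these data known. Of 51 tested assembly factors, 3 rose (5.88%) and 4 fell (7.84%) in KO DM against KO GM, and 2 rose (3.92%) and 2 fell (3.92%) in WT. Of all genes, 20.8% were called higher and 19.8% lower in KO and 18.4% and 14.8% in WT, and the counts of this and the following lists stand beside those shares. Ndufaf4, a complex I assembly factor, averaged 21.8 CPM in KO DM, against 35.8 CPM in KO GM (-0.71 ± 0.12, adjusted p = 5.99e-05), and Sco2, a copper chaperone of complex IV, 27.4 CPM in WT DM, against 40.8 CPM in WT GM (-0.57 ± 0.12, adjusted p = 0.000766). Uqcc1, which assists cytochrome b synthesis, rose in WT (0.48 ± 0.11, adjusted p = 0.00147). In KO DM against WT DM, 2 of the 51 were higher (3.92%) and 5 lower (9.8%), beside 13.6% and 17.4% of all genes. Among the lower ones was Coa6, a copper factor of complex IV (6.25 CPM, against 10.2 CPM in WT DM; -0.70 ± 0.17, adjusted p = 0.00326).

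Of 35 genes of mitochondrial DNA maintenance, transcription and RNA handling, 2 rose (5.71%) and 7 fell (20%) in KO DM, and 0 rose and 3 fell (8.57%) in WT DM. The share called lower in KO was near that of all genes. The interaction test called 1 of the 35 higher (2.86%) and 2 lower (5.71%), beside 3.61% and 5.25% of all genes. It is given below for Mterf4 alone, and a pass in only 1 genotype is not itself a difference between the responses. Lrpprc, which stabilises mitochondrial mRNAs, averaged 64.7 CPM in KO DM, against 86 CPM in KO GM (-0.41 ± 0.08, adjusted p = 0.00015), and changed by -0.05 ± 0.08 in WT (adjusted p = 0.635). Lonp1, the matrix protease, fell in both genotypes (-0.41 ± 0.08 in KO, adjusted p = 0.00031; -0.33 ± 0.08 in WT, adjusted p = 0.0032). In KO DM against WT DM, 2 of the 35 were higher (5.71%) and 5 lower (14.3%), beside 13.6% and 17.4% of all genes. Among the lower ones was Tfam, which packages mitochondrial DNA and starts its transcription. It averaged 37.9 CPM in KO DM, against 52.3 CPM in WT DM (-0.46 ± 0.09, adjusted p = 0.000544). Mterf4, which acts in mitochondrial ribosome assembly, rose in KO (0.75 ± 0.11, adjusted p = 1.01e-05) and not detectably in WT (-0.06 ± 0.12, adjusted p = 0.717), and the difference between the responses passed (0.82 ± 0.16, adjusted p = 0.00273).

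Among 20 tested regulators of mitochondrial biogenesis, 6 rose (30%) and 3 fell (15%) in KO DM, and 3 rose (15%) and 2 fell (10%) in WT DM. Ppargc1b, a coactivator of nuclear respiratory factors, averaged 4.73 CPM in KO DM, against 2.46 CPM in KO GM (0.94 ± 0.27, adjusted p = 0.00812), lost without KO DM replicate 2 (0.0535), and 6.68 CPM in WT DM, against 2.67 CPM in WT GM (1.31 ± 0.27, adjusted p = 0.000489). Its relative Ppargc1a stayed at group means of 0.204 to 0.536 CPM and was not tested. Mef2a, a muscle transcription factor, rose by 1.23 ± 0.09 in KO and 1.08 ± 0.09 in WT (adjusted p = 3.01e-10 and 3.1e-09), and Ppard, a nuclear receptor, fell in both (-1.12 ± 0.10 and -0.77 ± 0.10, adjusted p = 1.27e-08 and 4.25e-06). Nrf1, Gabpa and Esrra did not pass in either genotype, with changes of -0.02, -0.11 and -0.23 in KO and 0.16, 0.08 and -0.32 in WT.

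Of the 18 genes of the tricarboxylic acid cycle and pyruvate dehydrogenase, which supply NADH and succinate, 8 rose and 1 fell in KO DM and 8 rose and 0 fell in WT DM (44.4% higher in each, 5.56% lower in KO), against 20.8% and 18.4% of all genes called higher. Idh2, which makes NADPH in the matrix, averaged 164 CPM in KO DM, against 99.7 CPM in KO GM (0.72 ± 0.08, adjusted p = 2.22e-07), and 135 CPM in WT DM, against 80.9 CPM in WT GM (0.74 ± 0.08, adjusted p = 2.5e-07). In KO DM against WT DM, 3 of the 18 were higher (16.7%) and 2 lower (11.1%), beside 13.6% and 17.4% of all genes. Cs, citrate synthase, was 1 of the lower ones. It averaged 261 CPM in KO DM, against 345 CPM in WT DM (-0.40 ± 0.07, adjusted p = 0.000139).

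Of 18 genes for mobile carriers and ubiquinone, 2 rose (11.1%) and 5 fell (27.8%) in KO DM, and 1 rose (5.56%) and 1 fell (5.56%) in WT DM. This list also held Cyc1, a complex III subunit whose symbol lies outside the member rule, and dehydrogenases such as Gpd2. Coq8a, needed for ubiquinone synthesis, averaged 30.1 CPM in KO DM, against 6.4 CPM in KO GM (2.21 ± 0.25, adjusted p = 6.73e-06), and 25.7 CPM in WT DM, against 7.93 CPM in WT GM (1.70 ± 0.25, adjusted p = 0.000102). Gpd2, the mitochondrial glycerol-3-phosphate dehydrogenase, averaged 36.1 CPM in KO DM, against 140 CPM in KO GM (-1.95 ± 0.11, adjusted p = 1.55e-11), and 55.5 CPM in WT DM, against 144 CPM in WT GM (-1.38 ± 0.10, adjusted p = 2.07e-09). Cycs, somatic cytochrome c, fell in KO (191 CPM in DM, against 261 CPM in GM; -0.45 ± 0.09, adjusted p = 0.00021) and changed by -0.20 ± 0.09 in WT (adjusted p = 0.0863). Of 10 carriers and creatine shuttle genes, 2 rose (20%) and 3 fell (30%) in KO DM and 3 rose (30%) and 0 fell in WT DM. Slc25a5, an ADP/ATP carrier, and Vdac1, the outer membrane channel, fell in KO by 0.35 and 0.39 (adjusted p = 0.000416 and 7.77e-05). Ucp2 rose in WT by 1.12 ± 0.15 (adjusted p = 2.32e-05). The interaction test called 0 of these 10 higher and 3 lower (30%), beside 3.61% and 5.25% of all genes. Of the 18 mobile carrier and ubiquinone genes it called 0 higher and 1 lower (5.56%). Its values for single genes of both lists are not reported here.

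**Figure D5:**
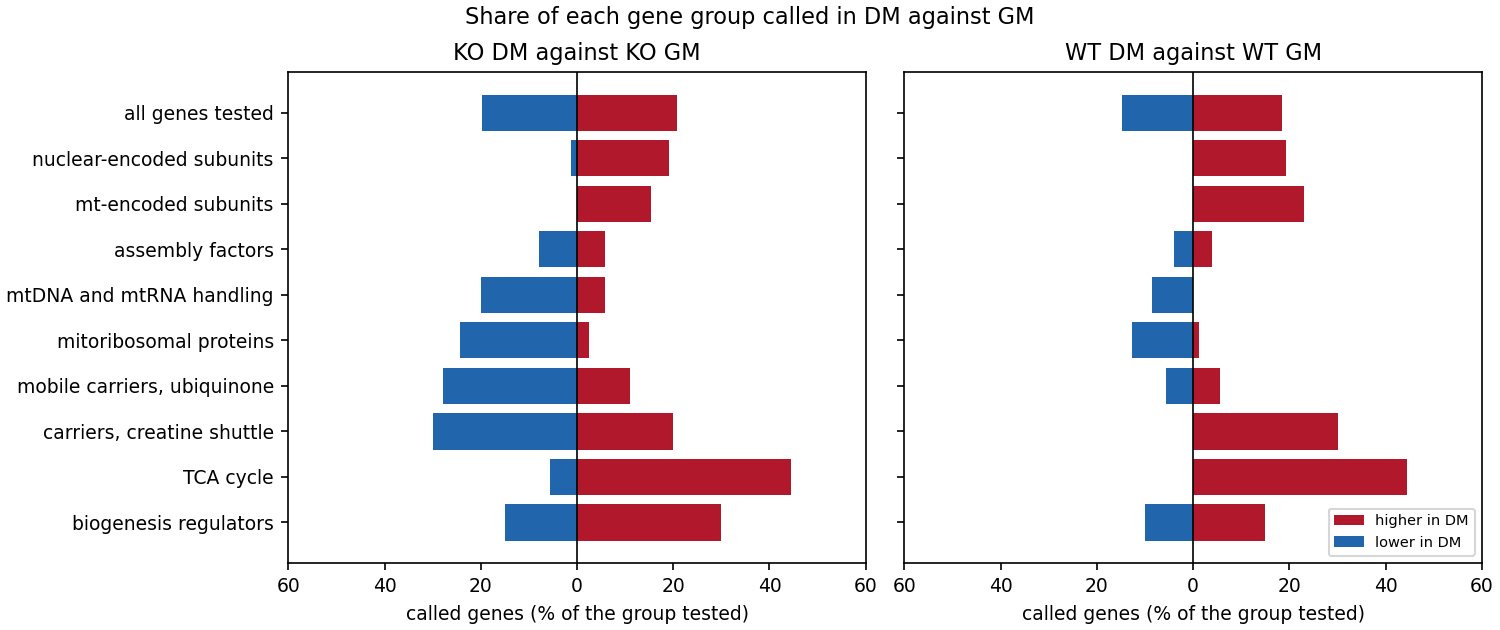
Share of each gene group (rows) called higher (right of 0) or lower (left of 0) in DM against GM, in percent of the genes tested, for KO-labelled cells (left) and WT cells (right). The nuclear subunits have 19.2% higher calls in each, near the 20.8% and 18.4% of all genes, and almost no lower calls.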

How the data were processed

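The authors deposited a table of raw read counts per Ensembl gene, without normalization; 4 further columns held no sample values and were left unused. The submitters' processing notes name the build GRCm39 and list DESeq2 1.40.2, R 4.3.1, RSEM 1.3.3 and STAR 2.7.1a. The role of each tool, the annotation release and the strand setting do not appear in the sources used here. Libraries held 8821669 to 11536396 counts, and 52083 of 55416 genes matched a symbol.

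Counts were tested with edgeR 4.0.16 under R 4.3.3 (filterByExpr, TMM factors, robust quasi-likelihood fit of the 4 groups over all 12 libraries, 2-sided). The 5 contrasts were DM against GM in each genotype, KO against WT in each medium, and the interaction (KO response minus WT response). P-values were adjusted by Benjamini-Hochberg over all 13250 genes and called below 0.05. SE is the absolute log2 change over the square root of F, and CPM use TMM-scaled sizes. A count of 0 allows up to 3 counts, or 0.26 to 0.346 CPM in a library, for counting error only.

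Of 99 matching symbols that are no pseudogenes, 8 were below 1 CPM, Cox8b (0.955) being nearest, while the lowest members were Atp5s (3.19) and mt-Atp8 (6.09). Of 13 symbols named or annotated as pseudogenes, 2 reached 1 CPM, Ndufb1-ps (14.4) and Ndufb4c (8.8); the latest step of the member choice, leaving out Ndufb4c by its annotation, was taken after its values were seen, and it was called in 0 contrasts. The members, lists and alternatives were chosen with earlier results of these data known. Named genes were Mapk14, the mitochondrial and Sdh genes, tissue isoforms, the 3 most abundant nuclear members of complexes I, III, IV and V, the 6 largest called rises and falls per contrast, Atpif1, and up to 4 called genes of each related list per contrast. Further called members, Ndufb4 and Atp5s, were named after their values were seen. A few genes that the rule named are not reported here. Sequences and lengths came from GENCODE M21 and RefSeq on GRCm38. DESeq2 1.42.0 and limma-voom (limma 3.58.1) were alternatives. Same-numbered libraries were not paired: correlations of their deviations ran from -0.09 to 0.19.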

Additional observations from a re-analysis of the deposited data

How the results depend on the processing

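The number of subunits called in each direction of each comparison was recomputed under up to 25 alternatives (the fit to only the groups compared has no counterpart for the interaction, and dropping the minimum CPM left the mitochondrial members as they were), and the cause of a change was not tested. In KO DM against KO GM, 24 nuclear subunits were higher without both GM replicate 3 libraries (10 to 22 with 1 library left out). The count lower was 0 with RLE factors, upper-quartile factors, total counts, DESeq2, no filter and the stricter filter, and 2 with the replicate block and without both GM replicate 3 libraries (0 to 2). Mitochondrial subunits higher were 5 with no filter, 4 with the block and 5 without both GM replicate 3 libraries (0 to 4).

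In WT DM against WT GM, 8 nuclear subunits were higher with total counts (5 to 18). The count lower was 3 with upper-quartile factors, 7 with total counts, 1 with library sizes free of mitochondrial genes, 3 with no filter, 1 with the dispersion not robust, 5 with the block and 2 without both GM replicate 3 libraries (0 to 5). Without those 2 libraries 5 mitochondrial subunits were higher (1 to 5) and 1 lower (0 to 1). In KO GM against WT GM, nuclear subunits lower were 6 with total counts, 5 with the block and 6 without both GM replicate 3 libraries (1 to 5), and mitochondrial ones lower 0 to 1 with 1 library left out. In KO DM against WT DM, 7 nuclear subunits were higher with only the 2 groups (0 to 7), 5 to 14 lower, and 0 to 1 mitochondrial ones higher. Mitochondrial subunits lower were 0 with RLE, upper-quartile factors, total counts, sizes free of mitochondrial genes, DESeq2, the stricter filter and the dispersion not robust (0 to 1).

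In the interaction, nuclear subunits higher were 1 with upper-quartile factors, total counts, no filter, the stricter filter and the block, and 2 without both GM replicate 3 libraries (0 to 2). Mitochondrial ones were 1 with total counts, DESeq2, no filter, the block and without both GM replicate 3 libraries (0 to 1). Deviations of same-numbered libraries were correlated at 0.19 at most, in GM replicate 3, and a shared replicate effect was not tested. The block counts are therefore not read as a weaker or stronger effect. Of the tests of 176 named genes, 19695 kept their side of the threshold, 351 passed in addition, 893 no longer passed and 0 changed the sign of a call. No setting changed the depth, and genes near 1 CPM, such as Cox8b, rest on few counts.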

Other observations

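Mitochondrial ribosomal protein genes, which serve to translate the 13 mitochondrially encoded subunits, were seldom called higher in DM, while their lower calls were near the share of all genes. Of 78 tested, 2 rose (2.56%) and 19 fell (24.4%) in KO DM against KO GM, beside 20.8% of all genes called higher and 19.8% lower. In WT DM against WT GM, 1 rose (1.28%) and 10 fell (12.8%), beside 18.4% and 14.8% of all genes. The medians of the log2 change were -0.11 and -0.09. In KO DM against WT DM 3 were higher (3.85%) and 13 lower (16.7%), beside 13.6% and 17.4% of all genes, and in KO GM against WT GM 3 were higher (3.85%) and 6 lower (7.69%), beside 10.0% and 10.6%.

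Mrps6, of the small subunit, had 31.5, 28.9 and 28.2 CPM in KO DM, against 55.8, 54.6 and 40.5 CPM in KO GM (log2 change -0.77, adjusted p = 4.4e-05, edgeR), and 34.3, 33.8 and 32.2 CPM in WT DM, against 56.6, 48.5 and 39.8 CPM in WT GM (-0.53, adjusted p = 0.00242). The DM libraries were all below the GM libraries. Mrpl50, of the large subunit, had 36.5, 36.7 and 38.9 CPM in KO DM, against 57.1, 46 and 46.3 CPM in KO GM (-0.41, adjusted p = 0.00223), and 47.1, 49.2 and 44 CPM in WT DM, against 37.4, 42.8 and 46.3 CPM in WT GM (0.15, adjusted p = 0.278). The difference between the responses was -0.56 (interaction, adjusted p = 0.0159), lost without KO DM replicate 1 (0.0595) or 2 (0.0551), KO GM replicate 1 (0.0669), WT DM replicate 2 (0.0618) or WT GM replicate 1 (0.0615). Mrps24 fell in WT (30.9, 30.4 and 34.3 CPM in DM, against 53.2, 42.2 and 43.7 CPM in GM; -0.54, adjusted p = 0.00033) and changed by -0.14 in KO (adjusted p = 0.311), with an interaction of 0.40 that did not pass (adjusted p = 0.0876).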
